A study of Rattus norvegicus with 8 samples.

Results

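The 9 genes described here are Mbp, Mog, Mag, Cnp, Myrf, Cldn11, Mobp, Olig2 and Neu4, which oligodendrocytes and their precursors use to build and maintain myelin. They were taken as all probes, control spots aside, whose gene name in the array annotation is one of these symbols, and 14 of the array's 30367 probes met that rule. The probes stand for 9 of 26214 annotated gene names, and 4 of the genes have more than 1 probe. Hippocampal RNA of male Sprague Dawley rats was measured on 8 single-colour Agilent arrays in 4 groups of 2. One group breathed normal air (normoxia). The other 3 groups stayed in a decompression chamber at a pressure equivalent to 25000 ft, with an effective oxygen level of 8%, and are titled day 1, day 3 and day 7. The exposure field of the day 7 group reads 5 days, so its duration is uncertain, and it is called day 7 here as in its titles. The labels give no age and do not say whether a group's arrays came from separate rats, pooled rats or 1 extract. The p-values therefore measure only the spread between the arrays of a group, which may be technical.

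Oligodendrocytes wrap axons of the central nervous system in compacted membrane, the myelin sheath, which speeds conduction and supports the axon. Precursors express Olig2, a basic helix-loop-helix transcription factor that specifies the lineage. In mice, Myrf, a transcription factor released from a membrane-bound precursor by self-cleavage, is needed for maturing cells to express myelin genes. Mbp and Mobp are basic proteins of compact myelin, and Mbp holds its cytoplasmic faces together. Cldn11 forms the tight junctions between myelin layers, and Cnp, a cyclic nucleotide phosphodiesterase, lies in uncompacted myelin. Mog is an immunoglobulin-family protein on the outer surface of the sheath, while Mag, a sialic acid-binding lectin, faces the axon. Neu4 is a sialidase, an enzyme that removes sialic acid from glycolipids and glycoproteins.

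Each array probe is a 60-base sequence, and its position is given on rat genome build rn4 as annotated in the files. The annotation gives the gene and the coordinates but does not say in which exon or untranslated region a probe lies. The probes of Cldn11, at chr2:116627458-116627517 on the minus strand, and of Cnp, at chr10:89524880-89524939 on the plus strand, are shown because these genes moved in opposite directions on days 1 and 3.
Cldn11: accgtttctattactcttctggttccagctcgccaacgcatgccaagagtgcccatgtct
Cnp: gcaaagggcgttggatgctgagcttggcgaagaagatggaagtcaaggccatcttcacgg

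Mobp, Mag and Mbp are shown because their probes gave different results. The 3 Mobp probes start at 125135770, 125136435 and 125143773 on the plus strand of chromosome 8 as printed, the first one whole and the other ones as their last 30 bases. Both Mag probes, on the minus strand of chromosome 1, and both Mbp probes, on the plus strand of chromosome 18, are also printed as their last 30 bases. The Mag stretches are chr1:85954601-85954630 and chr1:85954517-85954546, and the Mbp stretches are chr18:79057294-79057323 and chr18:79026472-79026501. Capitals mark the hexamer AATAAA, the usual polyadenylation signal, which 8.39% of all array probes hold on the strand printed. It was found in the brighter probe of Mag and of Mbp and in no other probe of the 9 genes.
Mobp, the first probe: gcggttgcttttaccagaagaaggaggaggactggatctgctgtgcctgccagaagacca
Mobp, the second probe: aagcctgtgtaatctactccctgcattaaa
Mobp, the third probe: ttctgcctgttctctctcttgtacgtgtga
Mag, brighter probe: aaaagggacatgaAATAAAtgtcctaatga
Mag, dimmer probe: ttctcgttgctgtaacaaaatactggacaa
Mbp, brighter probe: tattgaAATAAAatAATAAActtgcaatga
Mbp, dimmer probe: cctgtgaattaaaatgtatcagaagataaa

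Levels below are log2 processed signal minus the 75th percentile of all probes on the same array, so 0 means the level of that percentile. The percentile itself was a signal of 2684 and 2321 in normoxia and of 2214 and 2247 on day 1. It was 1710 and 1566 on day 3 and 1407 and 1393 on day 7. Spots well above background went from 85.6% and 84.5% in normoxia to 77.0% and 72.6% on day 7. A rise below is thus relative to a percentile that fell, and the cause of that fall was not tested. Levels of different probes are not compared, since probes differ in how strongly they bind. All 14 probes passed the filter on dim signals, no probe was saturated, and 13 were well above background on all 8 arrays. Differences were tested with limma over 24678 probes and called at an adjusted p under 0.05. A gene was called on its probe with the highest mean level. Fewer oligodendrocytes and less RNA per oligodendrocyte cannot be told apart in RNA of whole tissue.

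The groups differed widely beyond these genes. Of 21296 genes, 34.8%, 50% and 61% were called on days 1, 3 and 7 against normoxia. Hippocampal markers were present, with 14 of 14 above the filter and a summed level of 47.5 to 48.5 in normoxia, with day 1 at 48.9 to 49.5, day 3 at 66.0 to 67.2 and day 7 at 63.1 to 67.2, in multiples of the 75th percentile. Markers of neighbouring tissue differed between the groups, day 7 included. The 11 striatal markers summed to 14.3 in normoxia and to 77.9 to 78.3 on day 1. They summed to 11.96 to 11.97 on day 3 and to 12.5 to 12.7 on day 7. On day 1, 11 of 11 were called higher, beside 15% of all genes. Gpr6 did not reach well above background in normoxia, nor did Drd1, Gpr6 and Lhx8 on days 3 and 7. The 12 choroid plexus markers summed to 121 to 132 in normoxia, with day 1 at 1.97 to 2.03, day 3 at 163 to 175 and day 7 at 10.1 to 10.9. All 12 were called lower on day 1 and on day 7 (median log2 differences -3.27 and -3.09), beside 19.8% and 29.6% of all genes. Kl, Cldn2 and Prlr of that list did not reach well above background on day 1. On day 7 Kl, Clic6, Cldn2 and Prlr did not, and on day 3 Prlr did not. The 10 thalamus markers summed to 15.6 to 15.7, 10.3 to 10.4, 6.72 to 6.80 and 9.60 to 9.66 in the same order of groups. The part of tissue composition in the results below was not tested. Normoxia and day 1 lay in slide row 1 and days 3 and 7 in row 2, so row and exposure cannot be told apart between those pairs of groups.

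On day 1, Cldn11, Cnp and Mog were higher than in normoxia, and Olig2 and Neu4 were lower. On days 3 and 7, Cldn11, Cnp, Myrf, Olig2 and Neu4 were lower, by up to 2.73-fold, while Mog and Mbp were higher. Thus 5 of 9 genes were called on day 1 (3 higher, 2 lower), beside 34.8% of all genes, 7 of 9 on day 3 (2 higher, 5 lower), beside 50%, and 8 of 9 on day 7 (2 higher, 6 lower), beside 61%. For the 9 genes together the median log2 difference at days 1, 3 and 7 was 0.06, -0.32 and -0.62, against -0.07, -0.05 and -0.03 over all genes. Any difference among the 4 groups was called for 8 of the 9 genes, beside 71.9% of all genes, with Mag the exception (adjusted p = 0.0733).

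**Figure D1:**
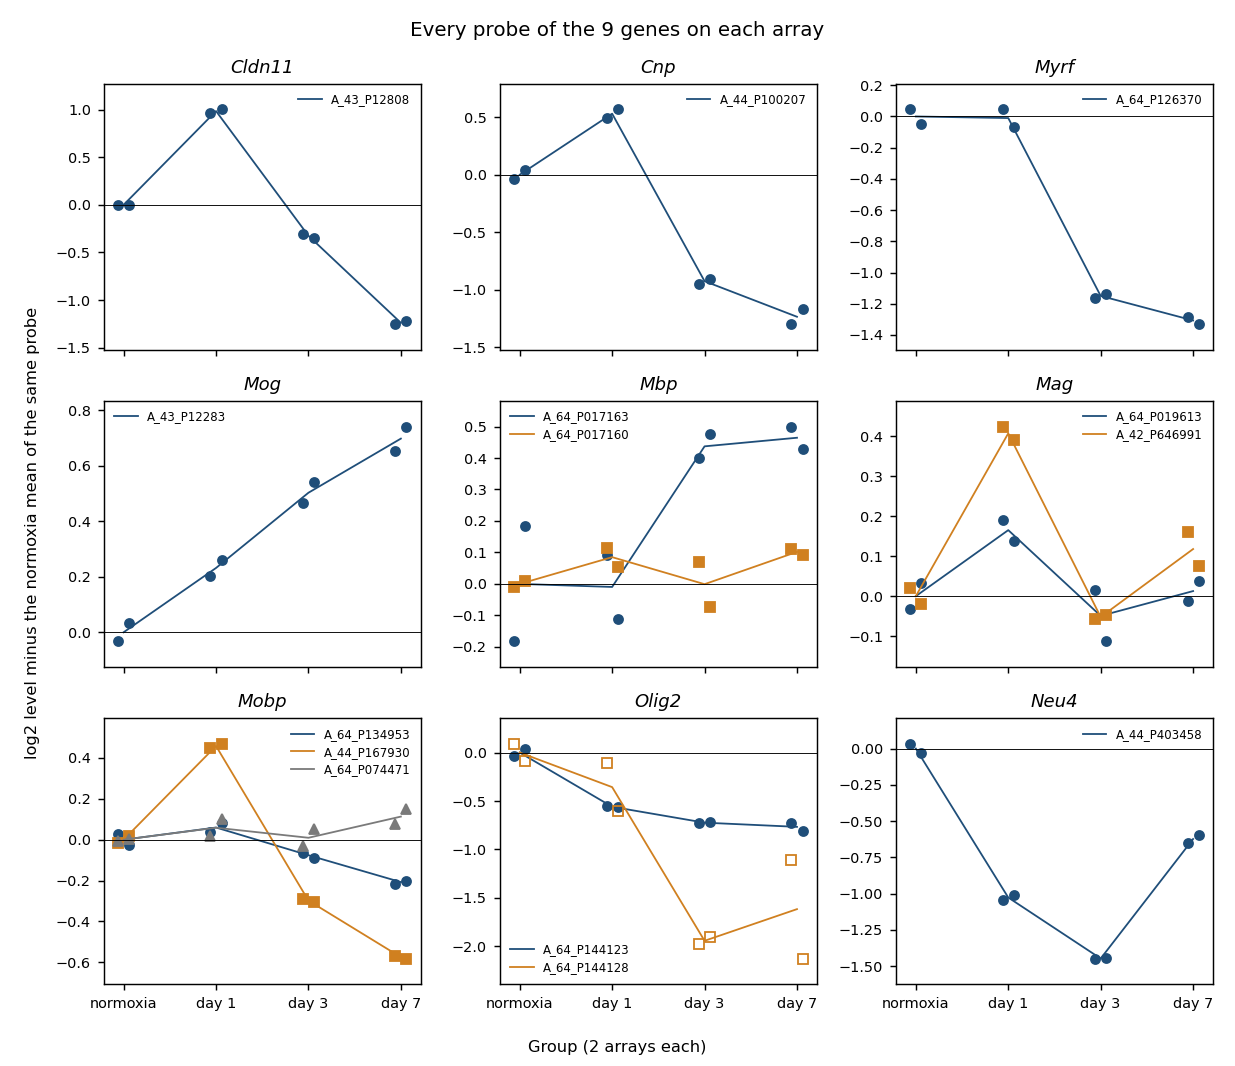
Each panel plots the probes of 1 gene on all 8 arrays. The y axis is the log2 level minus that probe's own normoxia mean, points are arrays, lines join group means, and open points mark the Olig2 probe that was not well above background on every array. Cldn11 and Cnp lie above 0 on day 1 and below it on days 3 and 7, and the 3 Mobp probes run apart.

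Cldn11, the claudin of myelin tight junctions, had levels of -0.80 and -0.80 in normoxia, with day 1 at 0.17 and 0.20, day 3 at -1.10 and -1.15 and day 7 at -2.05 and -2.03. No group overlapped another, and the order was day 1, normoxia, day 3, day 7 from high to low. Cldn11 was 1.98-fold higher on day 1 than in normoxia (log2 difference 0.99, SE 0.04, adjusted p = 0.000118). It was 1.25-fold lower on day 3 (-0.32, adjusted p = 0.00174) and 2.36-fold lower on day 7 (-1.24, adjusted p = 3.27e-05). The day 3 difference of Cldn11 shrank to -0.18 with median centring and to -0.16 with each array's trend with probe base composition removed, and was still called (adjusted p = 0.0142 and 0.0361). Day 3 was 2.48-fold below day 1, and day 7 was 1.89-fold below day 3 (adjusted p = 6.05e-05 and 0.000353).

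Cnp, the phosphodiesterase of uncompacted myelin, had levels of 1.84 and 1.92 in normoxia, with day 1 at 2.37 and 2.45, day 3 at 0.93 and 0.97 and day 7 at 0.58 and 0.71. The order of the groups was that of Cldn11, again without overlap. Its log2 differences from normoxia were 0.53, -0.93 and -1.24 for days 1, 3 and 7 (SE 0.06 each, adjusted p = 0.00324, 0.000392 and 8.59e-05), or 1.44-fold higher, 1.90-fold lower and 2.35-fold lower. Day 7 was 1.24-fold below day 3 (adjusted p = 0.0138).

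For Mobp, a basic protein of compact myelin, the result depended on the probe. The third probe, which starts 7973 bases downstream of the first, read 1.79 and 1.82 in normoxia, with day 1 at 2.25 and 2.27, day 3 at 1.51 and 1.497 and day 7 at 1.23 and 1.22. It had the group order of Cldn11 and Cnp, with no overlap. Its differences from normoxia were 0.46, -0.30 and -0.57 on days 1, 3 and 7 (SE 0.03 each, adjusted p = 0.000889, 0.00175 and 0.000134).

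The second Mobp probe, the brightest of the 3, read 2.58 and 2.53 in normoxia, with day 1 at 2.60 and 2.64, day 3 at 2.49 and 2.47 and day 7 at 2.34 and 2.36. It was called against normoxia on day 7 alone (-0.21, SE 0.04, adjusted p = 0.00663), a direction that turned with median centring (0.087). The first probe read 1.81 and 1.82, 1.83 and 1.91, 1.78 and 1.86, and 1.89 and 1.96 in the same order of groups. No comparison of it was called, and its day 7 difference was 0.11, with a 95% interval of -0.02 to 0.25. With median centring the first Mobp probe was called higher on day 7 (0.41, adjusted p = 0.00259). The third probe's interval on that day was -0.66 to -0.49, clear of the intervals of both other probes, though the difference between probes was not itself tested.

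Mbp, the basic protein that holds compact myelin together, was measured by a probe annotated to transcript variant 1 and by one annotated to transcript variant 6, which starts 30822 bases upstream. The variant 1 probe read 6.75 and 7.12 in normoxia, with day 1 at 7.03 and 6.83, day 3 at 7.34 and 7.41 and day 7 at 7.44 and 7.37. The normoxia arrays lay further apart than those of any other group, and days 3 and 7 lay above both other groups. The rise was 1.35-fold on day 3 (log2 difference 0.44, SE 0.14, adjusted p = 0.0462) and 1.38-fold on day 7 (0.46, SE 0.14, adjusted p = 0.0319). The day 3 call held in 7 of 22 alternative settings and the day 7 call in 12 of 22. Without normoxia replicate 1, the Mbp differences were 0.25 on day 3 and 0.28 on day 7 (adjusted p = 0.131 and 0.0885). With cyclic loess, which removes trends with signal level, the day 7 difference turned to -0.072.

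The variant 6 probe of Mbp read -0.91 and -0.89 in normoxia, with day 1 at -0.79 and -0.85, day 3 at -0.83 and -0.98 and day 7 at -0.79 and -0.81. None of its 5 comparisons was called, though median centring and quantile normalization called this Mbp probe higher on day 7 (0.40 and 0.17). Its day 7 difference was 0.10, with a 95% interval of -0.05 to 0.25, which overlaps the interval of 0.12 to 0.81 of the variant 1 probe.

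Mog, on the outer surface of the sheath, was higher at each later time. Its levels were 2.97 and 3.04 in normoxia, with day 1 at 3.21 and 3.26, day 3 at 3.47 and 3.54 and day 7 at 3.66 and 3.74, without overlap. The differences from normoxia were 0.23 (adjusted p = 0.0269), 0.50 (adjusted p = 0.00145) and 0.70 (adjusted p = 0.000284) on days 1, 3 and 7, with an SE of 0.05 each. The day 1 call of Mog was lost when any 1 of the normoxia and day 1 arrays was left out, with an adjusted p of 0.064 to 0.13. Relative to the percentile, Mog was therefore 1.62-fold higher on day 7, whereas Cldn11 and Cnp were lower on the same arrays. Its step between days 3 and 7 was 0.20 (adjusted p = 0.0389), a call lost in 13 of 22 settings.

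Mag, the lectin facing the axon, was measured by probes that start 84 bases apart. The brighter one, on 1 spot per array, read 4.46 and 4.52 in normoxia, with day 1 at 4.68 and 4.63, day 3 at 4.50 and 4.38 and day 7 at 4.48 and 4.53. Both day 1 arrays lay above all others, but the day 1 difference of 0.17 was not called (95% interval 0.02 to 0.31, adjusted p = 0.0868). Day 3 was below day 1 by 0.21 (log2 difference -0.21, adjusted p = 0.0301), a call of Mag that held in 13 of 21 settings. The day 1 call against normoxia was gained in 4 of 21 settings.

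The dimmer Mag probe, printed on 10 spots of each array, read 1.69 and 1.65 in normoxia, with day 1 at 2.10 and 2.06, day 3 at 1.62 and 1.62 and day 7 at 1.83 and 1.75. Its log2 signal had an SD of 0.026 to 0.078 between the spots of an array. Day 1 was 1.33-fold above normoxia (0.41, SE 0.04, adjusted p = 0.0027) and day 3 was 1.37-fold below day 1 (adjusted p = 0.000988). Neither probe was called on day 3 or day 7 against normoxia. The direction of the brighter Mag probe on day 7 (0.01) depended on the scaling. It was called lower under quantile normalization (-0.30, adjusted p = 0.00668) and cyclic loess (-0.35, adjusted p = 0.00359), and higher under median centring (0.31, adjusted p = 0.00465). Under quantile normalization and cyclic loess it was also called lower on day 3 (-0.23 and -0.24). The dimmer probe was called higher on day 7 in 4 of 20 settings, at up to 0.41 with median centring.

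Of the lineage transcription factors, Olig2 was lower at every time. Its brighter probe read 2.18 and 2.24 in normoxia, with day 1 at 1.66 and 1.64, day 3 at 1.48 and 1.49 and day 7 at 1.48 and 1.41. Normoxia lay above all exposed arrays, and days 3 and 7 lay next to each other. Olig2 was 1.47-fold lower on day 1, 1.65-fold lower on day 3 and 1.70-fold lower on day 7 (log2 differences -0.56, -0.72 and -0.77, SE 0.04 each, adjusted p = 0.00104, 0.000315 and 0.000122). Days 3 and 7 differed by -0.04 and were not called apart (adjusted p = 0.483).

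A second Olig2 probe, starting 1923 bases upstream, was well above background on the 4 normoxia and day 1 arrays and on no day 3 or day 7 array. It read -5.57 and -5.75 in normoxia and -5.77 and -6.26 on day 1. The probe passed the filter only through normoxia and day 1, where it was high. Against the lowest signal counted as well above background, it was at least 1.48-fold lower on day 3 than in normoxia. On day 7 it was at least 1.43-fold lower. These bounds were not tested. The measured means were -7.60 on day 3 and -5.66 in normoxia. The measured differences of -1.94 on day 3 and -1.62 on day 7 (adjusted p = 0.00823 and 0.0118, limma) use values that were not well above background. With normexp background correction those differences vanished or turned, to 0.0037 and 0.18.

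Myrf, the factor that switches on myelin genes in maturing mouse oligodendrocytes, read -2.60 and -2.69 in normoxia, with day 1 at -2.60 and -2.71, day 3 at -3.80 and -3.78 and day 7 at -3.93 and -3.97. Normoxia and day 1 overlapped, and both lay more than 1 log2 unit above days 3 and 7. The day 1 difference was -0.01 (adjusted p = 0.91). Myrf was 2.22-fold lower on day 3 (-1.15, SE 0.06, adjusted p = 0.0002) and 2.47-fold lower on day 7 (-1.31, SE 0.06, adjusted p = 6.1e-05), and days 3 and 7 were not called apart (-0.16, adjusted p = 0.0801).

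Neu4, the sialidase, followed a course of its own. It read -1.80 and -1.87 in normoxia, with day 1 at -2.88 and -2.84, day 3 at -3.28 and -3.28 and day 7 at -2.49 and -2.43. Groups did not overlap, day 3 was lowest, and day 7 lay between normoxia and day 1. Neu4 was 2.04-fold, 2.73-fold and 1.54-fold lower than in normoxia on days 1, 3 and 7 (log2 differences -1.03, -1.45 and -0.62, SE 0.04 each, adjusted p = 0.000164, 6.99e-05 and 0.0002). Day 7 was 1.77-fold above day 3 (0.82, adjusted p = 0.00049).

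**Figure D2:**
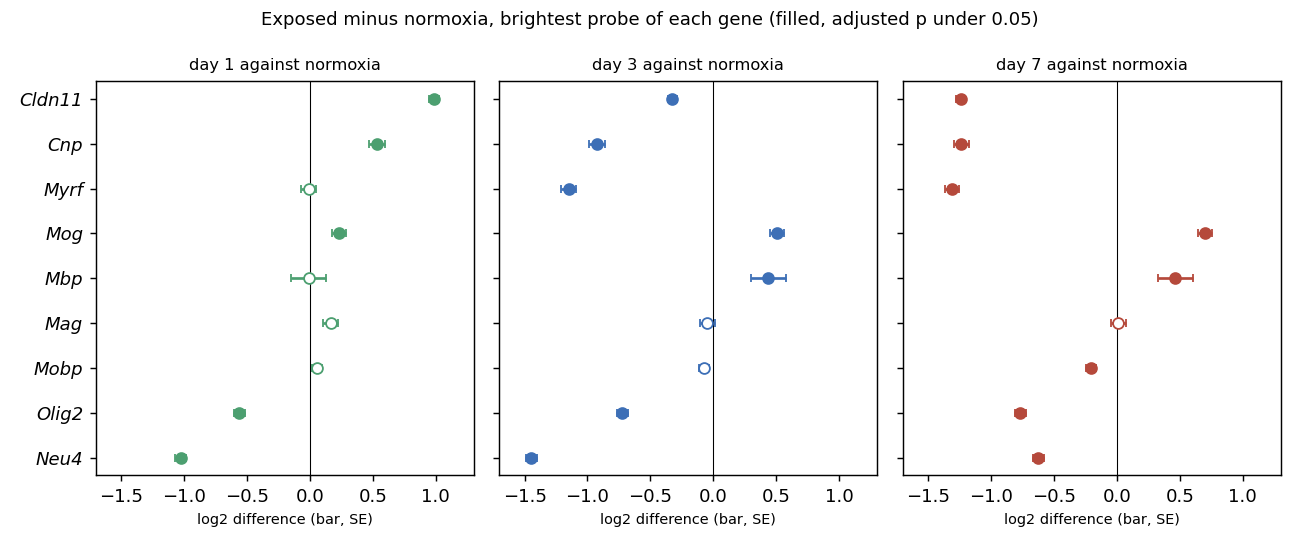
Log2 differences of the exposed groups minus normoxia for the brightest probe of each gene, with bars of 1 SE from the limma model and filled points for an adjusted p under 0.05. Cldn11 sits at 0.99 on day 1 and -1.24 on day 7, while Mog sits at 0.23 and 0.70.

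Between consecutive groups, all 9 genes were called on day 3 against day 1 (2 higher, 7 lower), beside 50.8% of all genes. Mog and Mbp were the higher ones, and Cnp had the widest difference of the 9 at -1.46 (SE 0.06). The calls of Cldn11, Cnp, Myrf and Neu4 on day 3 against day 1 held in all 21 settings, that of Mog in 17, Olig2 in 14, Mobp in 10 and Mbp in 9. On day 7 against day 3, 5 of 9 were called (Mog and Neu4 higher, Cldn11, Cnp and Mobp lower), beside 41.8% of all genes. Both counts moved when 1 array was left out, which leaves 1 array in its group. Without any 1 of the day 1 or day 3 arrays, fewer of all probes were called in both comparisons too.

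The calls of Cldn11, Cnp, Myrf and Neu4 against normoxia held in every alternative setting run. On day 7 the difference ranged over -1.25 to -0.95 for Cldn11, -1.37 to -0.94 for Cnp, -1.35 to -0.77 for Myrf and -0.66 to -0.33 for Neu4. The day 1 arrays, whose striatal markers stood apart, were left out in a further fit. The day 7 arrays, with choroid plexus markers also called lower, stayed in it. Cldn11, Cnp, Myrf, Mog, Olig2 and Neu4 then kept their day 3 and day 7 calls, with adjusted p of at most 0.00668 on day 3. Mbp lost its day 3 call (adjusted p = 0.0622) and kept that of day 7 (adjusted p = 0.0439).

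Changes on these arrays ran with signal level, so each gene was set beside all genes of the same decile of mean level. Mag, Mbp and Mog lie in the highest decile, whose median difference was 0.18 on day 3 and 0.36 on day 7. Mbp, at 0.46 on day 7, was 0.10 above that median, and Mog, at 0.70, was 0.33 above it and just past the 90th percentile of 0.69. Mag was 0.35 below the median of its decile on day 7. Cnp was 1.41 below the median of decile 8 and Olig2 1.03 below that of decile 9, both larger in size than their differences from normoxia (-1.24 and -0.77). Cldn11 was 1.18 below, and Myrf 1.12 below, the medians of their deciles. Neu4, at -0.62, lay within the 10th to 90th percentile of its decile (-1.07 to 0.56). Mobp, at -0.21, also lay within that range of its own decile (-0.37 to 0.69).

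**Figure D3:**
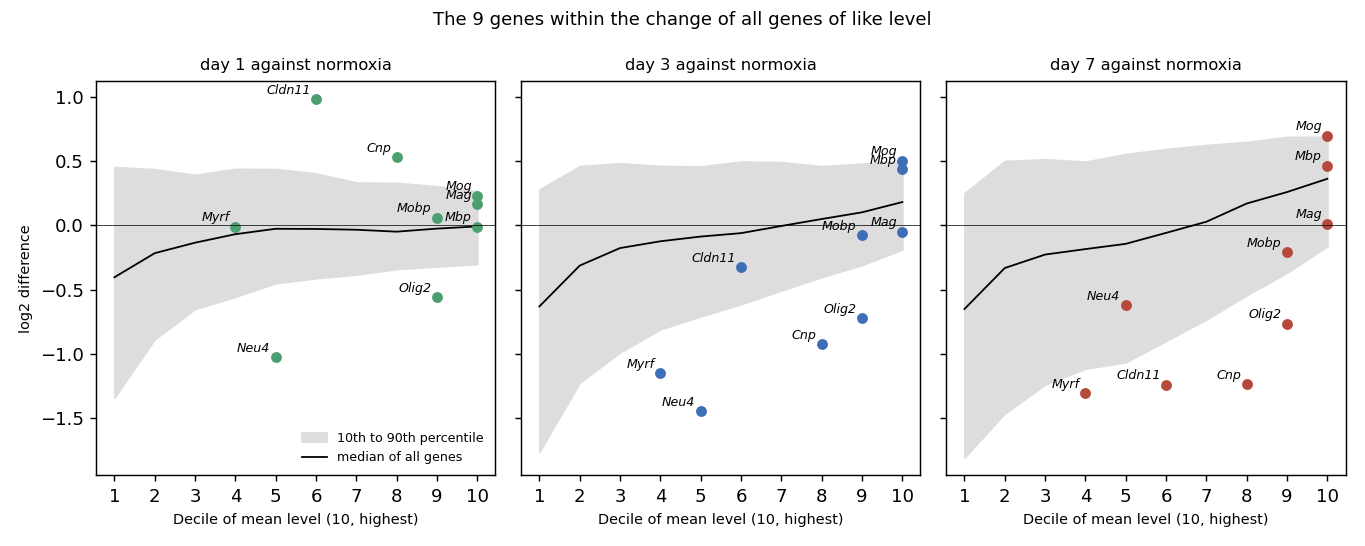
Log2 differences from normoxia of the 9 genes (points, brightest probe) against their decile of mean level, with the median of all genes (line) and the 10th to 90th percentile (grey). On day 7 the line climbs to 0.36 in the highest decile, and Cnp, Cldn11, Myrf and Olig2 lie below the grey band.

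Changes also ran with the base composition of the probes. On day 7 the median difference was 0.22 for probes under 35% G and C and -0.23 for those of 50 to 55%. The Mbp probes hold 35% and 30%, the brighter Olig2 probe 35%, Mog and Myrf 45%, Cldn11 51.7%, Neu4 53.3% and Cnp 55%, and the median array probe holds 45%. With that trend removed from each array, the day 7 difference was -1.003 for Cldn11, -0.99 for Cnp, -1.16 for Myrf, -0.97 for Olig2, -0.38 for Neu4 and 0.85 for Mog, all still called. Mbp (0.26, adjusted p = 0.175) and Mobp (-0.06, adjusted p = 0.308) were then no longer called on day 7. Calls were also gained with the trend removed. Mag was then called higher on day 1 (0.24, adjusted p = 0.0318) and on day 7 (0.20, adjusted p = 0.0336), and the first Mobp probe on day 7 (0.36, adjusted p = 0.00682).

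Across the 8 arrays, Cnp correlated with Myrf at 0.95, with Cldn11 at 0.94 and with Mobp at 0.93. Mog ran opposite to Myrf at -0.93 and to Cnp at -0.81, and with Mbp at 0.84. Neu4 ran with Olig2 at 0.78 and with Cldn11 at -0.13. These values describe 8 arrays in 4 groups on 1 slide and rest mostly on the 4 group means. The genes whose levels most resembled the mean course of the 9 genes, among 8949 named genes with group means spanning at least 0.5 log2, were Rnd1, Abat, Vps16, Hsd17b12 and Syt13, with correlations of 0.997 to 0.998. Abat, for example, averaged -1.23 in normoxia, with day 1 at -1.11, day 3 at -1.95 and day 7 at -2.04.

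Upstream sequence was available from RefSeq (build GRCr8) for 7 of the 9 genes, Mog and Myrf being the unmatched ones, with 2 starts for Mbp. In the 250 bases before each start, both strands were searched for CTGGCAC and CTGGTAC, letters bound by Myrf protein in mouse, for ACAAAG and ACAATG, letters of SOX factors, and for the E-box CANNTG, the letters bound by Olig2-type factors. The Myrf letters were in 4 of 8 member sequences, beside 5.48% of 33469 rat sequences of that length. The SOX letters were in 4 of 8, beside 25.3%, and the E-box in 5 of 8, beside 65.5%. A match is a run of letters and not evidence of binding. The 4 sequences that hold the Myrf letters are shown, with every match to the 3 motifs in capitals; none of these matches overlap. They lie at chr2:114149540-114149789 on the minus strand (Cldn11), chr10:86011254-86011503 on the plus strand (Cnp), chr1:95291045-95291294 on the minus strand (Mag) and chr11:43961335-43961584 on the plus strand (Olig2).
Cldn11 upstream: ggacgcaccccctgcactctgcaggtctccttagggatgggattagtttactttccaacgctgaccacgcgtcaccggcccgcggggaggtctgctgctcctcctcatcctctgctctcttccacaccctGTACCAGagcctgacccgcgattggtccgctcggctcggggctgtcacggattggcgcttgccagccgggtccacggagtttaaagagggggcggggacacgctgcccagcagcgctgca
Cnp upstream: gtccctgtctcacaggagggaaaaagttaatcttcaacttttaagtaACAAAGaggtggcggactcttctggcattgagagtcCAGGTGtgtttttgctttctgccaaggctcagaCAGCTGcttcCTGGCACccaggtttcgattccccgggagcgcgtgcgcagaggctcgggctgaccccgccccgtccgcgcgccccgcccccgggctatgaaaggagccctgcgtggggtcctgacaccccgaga
Mag upstream: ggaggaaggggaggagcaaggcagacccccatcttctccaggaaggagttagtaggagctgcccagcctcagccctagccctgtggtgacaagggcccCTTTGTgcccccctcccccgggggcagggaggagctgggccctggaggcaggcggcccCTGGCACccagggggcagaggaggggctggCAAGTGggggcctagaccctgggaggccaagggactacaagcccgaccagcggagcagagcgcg
Olig2 upstream: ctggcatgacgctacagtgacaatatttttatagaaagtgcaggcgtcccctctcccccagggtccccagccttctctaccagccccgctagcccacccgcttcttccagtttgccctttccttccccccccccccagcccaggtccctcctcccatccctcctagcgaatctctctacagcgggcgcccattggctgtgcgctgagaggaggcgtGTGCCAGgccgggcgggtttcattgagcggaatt

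Other genes of myelin and of the lineage were grouped in 7 lists, from which up to 4 genes each are named by the smallest p of any difference. Among 17 further myelin membrane, junction and adhesion genes, 5 rose and 5 fell on day 1, 2 rose and 12 fell on day 3, and 4 rose and 12 fell on day 7, against all-gene shares lower of 19.8%, 26% and 29.6%. The shares of all genes that rose were 15%, 24% and 31.4%. Both sets of shares stand beside the counts of every list of genes and markers below. A count near its share is no trait of its list. The list median was 0.03, -0.36 and -0.54. Nfasc, an adhesion molecule of nodes and paranodes, took the course of Cldn11, with differences of 0.75, -0.34 and -1.42, and so did the junction protein Jam3, with 0.46, -0.41 and -0.79. Mal, a proteolipid of myelin membrane traffic, was higher on day 1 (1.05, adjusted p = 0.000135) and lower on day 7 (-0.71). Omg, a myelin glycoprotein, fell on days 3 and 7 (-0.89 and -0.91).

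Among 8 myelin lipid synthesis genes, 1 rose and 1 fell on day 1, 2 rose and 4 fell on day 3, and 3 rose and 4 fell on day 7. Cers2, the ceramide synthase for very long chains, fell on days 3 and 7 (log2 differences -1.28 and -2.38, adjusted p = 0.00274 and 0.000212). Fa2h, which hydroxylates myelin fatty acids, was lower at each time (-0.32, -0.47 and -0.41). Ugt8 and Gal3st1, which make galactosylceramide and sulfatide, were lower on day 3 (-0.54 and -0.47), and Gal3st1 was not called on day 7 (-0.02).

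Among 12 lineage transcription factors other than Olig2 and Myrf, 1 rose and 3 fell on day 1, 2 rose and 7 fell on day 3, and 4 rose and 5 fell on day 7. Tcf7l2, an effector of Wnt signalling in maturing oligodendrocytes, was lowest on day 3, as was Neu4, with differences of -0.81, -1.14 and -0.36. Hes5, a Notch target, was lower at each time (-0.93, -1.28 and -1.57). Zeb2, which other brain cells also express, was higher on day 3 (1.15, adjusted p = 9.83e-05), and Sox8 was higher on day 7 (0.51).

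Of 13 precursor genes, 1 rose and 6 fell on day 1, 2 rose and 7 fell on day 3, and 2 rose and 3 fell on day 7. Bmp4 and C1ql1 of this list were lower throughout. The differences were -0.79, -0.96 and -1.33 for Bmp4 and -1.01, -1.10 and -1.58 for C1ql1. The proteoglycan Vcan was lower on day 1 (-0.70) and higher on day 7 (0.56). Matn4, an extracellular matrix gene, was higher on day 1 (0.98) and lower on day 3 (-1.42).

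Of 22 mature oligodendrocyte genes, 5 rose and 9 fell on day 1, 5 rose and 13 fell on day 3, and 8 rose and 10 fell on day 7. Sirt2, a deacetylase abundant in myelin, took the course of Cldn11 (0.33, -0.79 and -1.69), and Anln, a septin-binding protein of myelin, that of Mog (0.16, 0.50 and 0.83). Enpp6, of newly formed oligodendrocytes, was lower at each time and lowest on day 3 (-0.32, -1.24 and -0.67). Enpp2, which choroid plexus also makes, was lower at each time (-1.14, -0.30 and -0.89). The summed choroid plexus level given above was lowest on day 1 and next lowest on day 7, but on day 3 it was above normoxia. The part of choroid plexus in the Enpp2 differences was not tested.

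**Figure D4:**
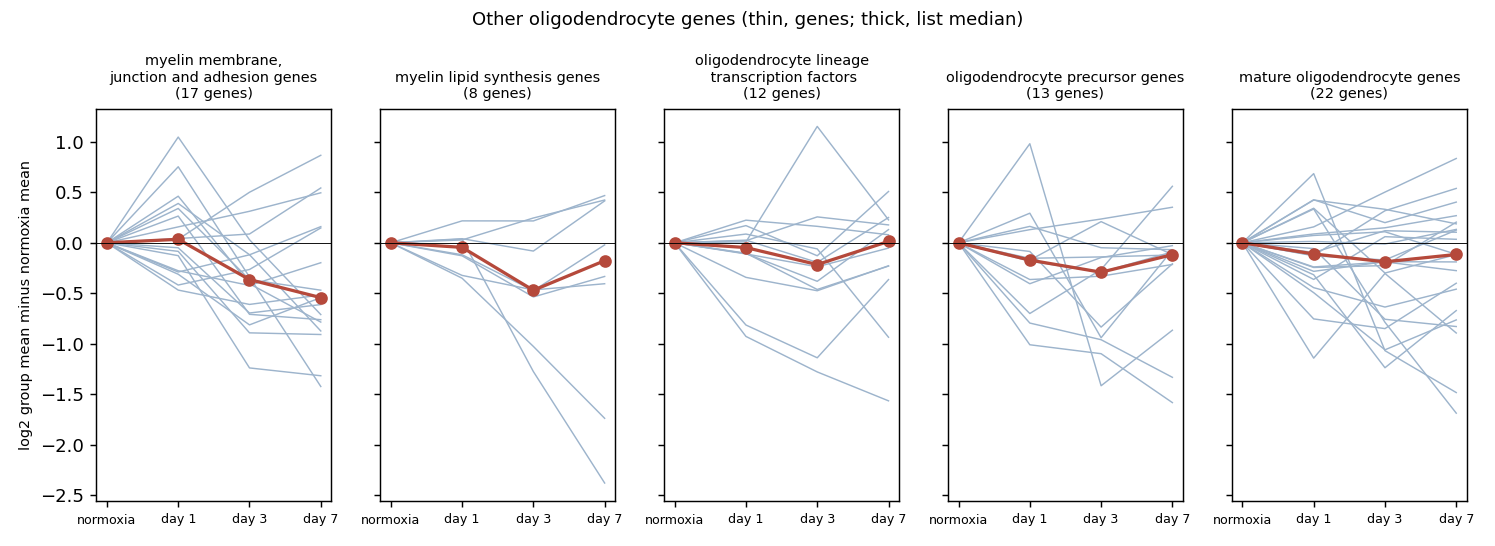
Group means minus the normoxia mean, in log2 units, for the kept genes of 5 lists of other oligodendrocyte genes (thin lines) and the median of each list (thick line). The myelin membrane median falls to -0.54 on day 7, while the lists hold genes on both sides of 0 at every time.

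Of 6 Schwann cell genes, which myelinate peripheral nerve, 2 rose and 1 fell on day 1, 1 rose and 1 fell on day 3, and 2 rose and 4 fell on day 7. Egr2, which drives peripheral myelin genes and is also a neuronal early response gene, had differences of 0.61, -0.51 and -0.58. Pmp22 differed by -0.16, -0.10 and 0.15, and Prx was at least 1.22-fold lower on day 7, when it was not well above background. Of 10 growth inhibition and receptor genes, 1 rose and 2 fell on day 1, 1 rose and 3 fell on day 3, and 3 rose and 6 fell on day 7. Rtn4, which encodes the growth inhibitor Nogo, was higher at each time (0.15, 0.31 and 0.62), and Lingo1, a partner of the Nogo receptor, was lower (-0.35, -0.72 and -0.84). Lgi3 was higher on day 7 (0.38), and Nrg1, a ligand of glial receptors, was at least 3.89-fold lower on day 3.

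Markers of other cell types moved on the same arrays. The 11 astrocyte markers summed to 235 to 258 in normoxia, with day 1 at 269 to 279, day 3 at 280 to 281 and day 7 at 303 to 307. The 11 neuron markers summed to 92.1 to 92.6, 78.5 to 79.1, 84.7 to 85.1 and 92.6 to 92.8 in the same order, and the 10 microglia markers to 33.6 to 34.2, 36.4 to 37.1, 31.9 and 38.0 to 40.3. A sum weights bright probes most, and within each list markers moved both ways. Of the astrocyte markers, 4 rose and 3 fell on day 1, 5 rose and 4 fell on day 3, and 7 rose and 4 fell on day 7 (median log2 differences 0.15, 0.10 and 0.19). Gfap, the filament protein of astrocytes, fell by 1.96 on the log2 scale on day 7, while the glutamate transporter Slc1a3 rose by 0.56. Of the neuron markers, 2 rose and 5 fell on day 1, 0 rose and 7 fell on day 3, and 3 rose and 7 fell on day 7 (medians -0.05, -0.18 and -0.36). Syn1, a synaptic vesicle protein, fell by 1.13 on day 7, while the neuronal tubulin Tubb3 rose by 0.55. Of the microglia markers, 5 rose and 0 fell on day 1, 1 rose and 5 fell on day 3, and 4 rose and 5 fell on day 7 (medians 0.06, -0.10 and -0.07), with the receptor Csf1r down on day 7 (-1.10). These 5 markers were named after their values were seen. All markers of these 3 lists were well above background in every group. Their part in the changes of the 9 genes was not tested.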

How the data were processed

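Total RNA of rat hippocampus, 2 samples in each of 4 groups, was labelled with Cy3 per the labels' protocols and hybridised to Agilent arrays on a single slide. The deposited scanner files hold background-subtracted spot intensity from Feature Extraction 11.5.1.1, per the file headers, without scaling between arrays. The value table deposited by the authors is in log2 units. It matched the scaled processed signal described next, apart from 1 constant per array, within 0.05 for 96.7% to 97.4% of values, and served as an alternative.

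Control and outlier spots were dropped and the remaining spots of each probe averaged on the log2 scale. The 75th percentile of the 30367 probes was then subtracted within each array. A probe was kept if both arrays of any group had it well above background in 50% or more of its spots, which left 24678 of 30346 complete probes. All groups entered 1 limma model (version 3.58.1 under R 4.3.3, lmFit then eBayes, two-sided tests) with a mean per group, 4 residual and 1.23 prior degrees of freedom, and Benjamini-Hochberg adjustment over the kept probes. Intervals are 95% intervals of that model. Other software was Python 3.11.15 with matplotlib 3.10.9, pandas 2.3.3 and numpy 2.4.6, and the data.table package (version 1.17.8). The procedure was tested on simulated data. The median difference between the arrays of a group was 0.061 to 0.095 log2, and the number of arrays limits the precision.

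The members, lists and tests were chosen with earlier results of these data known. All member probes were named, with up to 4 genes per list by the smallest F p. Not every gene chosen in this way is reported here. Array numbers were not treated as pairs, since deviations of like-numbered arrays correlated at -0.14 to 0.04 between groups. Alternatives were quantile, cyclic loess and median scaling, normexp with an offset of 50, the authors' values, other filters and probe rules, an intensity trend for the prior, fits of single pairs of groups, a replicate block and the omission of single arrays. Correction for probe GC and omission of both day 1 arrays were chosen after seeing the data.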

Additional observations from a re-analysis of the deposited data

Results flagged for a closer look

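Cnp and Cldn11 were called in opposite directions at different exposure times, and the difference between those times was itself called. For Cnp, the log2 difference from normoxia was -0.93 on day 3 and 0.53 on day 1, and day 3 minus day 1 was -1.46 (SE 0.06, adjusted p = 0.000125, limma over all kept probes). For Cldn11 the day 3 and day 1 differences were -0.32 and 0.99, and day 3 minus day 1 was -1.31 (SE 0.04, adjusted p = 6.05e-05). Tissue markers also differed between these groups. The summed level of 11 striatal markers was 11.96 to 11.97 on day 3, against 77.9 to 78.3 on day 1, and that of 12 choroid plexus markers was 163 to 175 on day 3, against 1.97 to 2.03 on day 1. The part of these tissue markers in the differences was not tested.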

How the results depend on the processing

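Calls of Cldn11, Cnp, Myrf and Neu4 against normoxia, and of Mog and Olig2 on days 3 and 7, held in every alternative run. Over all member probes and comparisons, 1300 values kept direction and call, 123 lost and 26 gained a call, and 8 reversed. The reversed ones were Mag on day 7 against normoxia with quantile normalization (-0.30) and cyclic loess (-0.35), Mbp on day 7 with cyclic loess (-0.072), Mobp with median centring on day 7 against normoxia (0.087) and against day 3 (0.015), and the dim Olig2 probe with normexp, on days 3 and 7 against normoxia (0.0037 and 0.18) and on day 3 against day 1 (0.019). The count of 5 members called on day 7 against day 3 was 3 with normexp, with no filter and without the day 1 arrays, and 2 with only the groups compared. The count of 9 on day 3 against day 1 was 5 with the replicate block, which left every other count of members called within 1.5 times. Of all probes, 11993 were called on day 3 against day 1 with that block, in place of 12589. Leaving out 1 array gave 4 to 5, 6 to 7 and 7 to 8 members called on days 1, 3 and 7, 4 to 9 on day 3 against day 1, 2 to 4 on day 7 against day 3 and 7 to 8 for any difference. Olig2 lost its day 1 call with the mean of its probes, and Mog lost its day 1 call without any 1 of the normoxia and day 1 arrays. Of all probes, 10155 were called on day 7 against day 3. That count was 8083 with normexp, 8866 of 30346 probes with no filter, 8603 without the day 1 arrays and 5629 with only the groups compared. On day 1 the 8449 called became 5461 and 5429 without normoxia replicate 1 or 2, and 4667 and 4738 without day 1 replicate 1 or 2. Median centring moved the median of all probes on days 3 and 7 to 0.08 and 0.23, and normexp to 0.12 and 0.21, from -0.07 each. The share of calls that were higher was then 64.4% and 67.2% on day 3, in place of 45.5%, and 70.4% and 70.3% on day 7, in place of 48.5%. It was 66.2% and 69.0% on day 3 against day 1, in place of 52.4%, and 74.9% with median centring on day 7 against day 3, in place of 54.1%. On day 1 it was 57.9% with the GC trend removed, in place of 44.0%. The causes were not tested. Signals near background, as for the dim Olig2 probe, give bounds only, and 2 arrays a group limit all intervals.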
